A study of Mus musculus with 8 samples.

Results

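The genes described here encode the proteasome, its caps and its inhibitor in mouse natural killer (NK) cells with and without CIS, a cytokine-signalling inhibitor encoded by Cish. Members were taken by symbol, as every gene named Psma, Psmb, Psmc, Psmd, Psme or Psmf plus a number, with symbols ending in -ps left out. That gave 44 of the 27179 genes counted, and 42 of them passed the filter on low counts that left 13184 genes for testing. Psme2b, which the rule also asks for, had no entry of that symbol and was not analysed here. The labels give 4 groups of 2 RNA-seq libraries each, all from C57BL/6 mice: CIS-/- NK cells in vitro, wild type NK cells in vitro, CIS-/- NK cells ex vivo and wild type NK cells ex vivo. All cells came from spleen, bone marrow and blood and were enriched with beads against CD49b (DX5), a surface integrin that basophils also carry. The labels name no drug or added cytokine, no culture medium or culture time, no age and no allele for CIS-/-. They do not say whether the libraries of a group came from separate mice, so p-values measure only the spread between these libraries, which may be technical. "Culture" below means in vitro against ex vivo.

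The 20S proteasome is a barrel of stacked rings in which the alpha subunits form the outer gate and the beta subunits hold the proteolytic sites. The 19S cap recognises ubiquitin-tagged proteins, removes the tag with its lid and unfolds them with the ATPases of its base. In lymphocytes, and wherever interferon acts, the catalytic beta subunits Psmb5, Psmb6 and Psmb7 can be replaced during assembly by Psmb8, Psmb9 and Psmb10, which gives the immunoproteasome and changes the peptides offered on MHC class I. Alternative caps are the PA28 alpha and beta subunits (Psme1 and Psme2, also interferon-induced), nuclear PA28 gamma (Psme3) and PA200 (Psme4), and the protein PI31 (Psmf1) inhibits the 20S core in vitro.

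Promoter sequence was read for 3 genes on which the results turn: Psmb8, the immunoproteasome subunit with the highest level, Psmb5, the standard subunit it replaces, and Psme3, the activator whose difference between genotypes in vitro held in every setting tried. Each is the 250 bases before the RefSeq start in GRCm38.p6, 5′ to 3′ on the gene's strand, at chr17:34197945-34198194 (+) for Psmb8, chr14:54617996-54618245 (-) for Psmb5 and chr11:101315963-101316212 (+) for Psme3. Capitals mark a match to one of the 3 motifs named below.
Psmb8: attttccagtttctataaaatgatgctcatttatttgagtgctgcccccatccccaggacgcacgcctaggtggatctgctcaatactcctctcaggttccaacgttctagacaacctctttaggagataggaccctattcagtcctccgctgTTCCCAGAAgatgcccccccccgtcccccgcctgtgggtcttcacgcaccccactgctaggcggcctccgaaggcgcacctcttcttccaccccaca
Psmb5: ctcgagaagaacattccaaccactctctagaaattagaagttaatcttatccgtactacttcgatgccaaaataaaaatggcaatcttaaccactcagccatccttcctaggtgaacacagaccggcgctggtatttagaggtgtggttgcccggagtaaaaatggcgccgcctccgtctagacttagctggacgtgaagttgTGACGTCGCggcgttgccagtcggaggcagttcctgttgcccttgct
Psme3: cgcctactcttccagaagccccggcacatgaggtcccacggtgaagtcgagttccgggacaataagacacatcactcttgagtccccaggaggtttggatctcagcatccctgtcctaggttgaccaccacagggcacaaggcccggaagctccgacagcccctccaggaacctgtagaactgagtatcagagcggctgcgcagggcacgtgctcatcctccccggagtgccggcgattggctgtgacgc

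The Psmb8 window holds a gamma-activated site, the interferon-gamma response motif TTCNNNGAA, that begins 97 bases before the start. The Psmb5 window holds an antioxidant response element, TGACNNNGC, the motif of NRF1 and NRF2, that begins 47 bases before the start, and the Psme3 window holds neither of these nor the interferon-stimulated response element that IRF factors bind. Both strands were searched in windows of 300 bases, 250 before and 50 after the start, which were at hand for 37 of the 44 genes. The antioxidant response element was in 6 of those 37 promoters (16.2%) and in 12.5% of all 27025 promoters. For the gamma-activated site the shares were 5.41% of the proteasome promoters (2 of 37) and 8.47% of all. The interferon-stimulated response element was in 4 of 37 (10.8%) against 3.49% of all, namely in Psmb3, Psmd4, Psmd9 and Psme1. Psmd9 was the one proteasome promoter with more than 1 of the motifs, and its matches did not overlap. These matches describe letters in a window and are not evidence of binding.

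Library totals ran from 21.5 M to 28.1 M counts, and the proteasome genes together took 0.777% and 0.846% of the counts in the CIS-/- in vitro libraries, 0.695% and 0.687% in wild type in vitro, 0.531% and 0.489% in CIS-/- ex vivo, and 0.474% and 0.475% in wild type ex vivo. Cish itself was lower in CIS-/- cells, at 21.2 and 17.2 CPM (counts per library scaled to a common size) in vitro against 219.8 and 201.9 in wild type in vitro, and at 1.29 and 2.64 ex vivo against 9.26 and 9.12 in wild type ex vivo. The NK marker list was detected in full (10 of 10 genes with a count above 0) in every library. By that rule the B cell list was also detected in full (7 of 7) in every ex vivo library. Within the NK list, Ncr1, Klrb1c, Eomes, Tbx21, Itga2, Prf1, Nkg7 and Klre1 were lower in every cultured library than in every ex vivo one. Klrd1 overlapped between the states, and Gzmb alone was higher in every cultured library. Gzmb was at 11122 to 24977 CPM in vitro and 875 to 1034 ex vivo, and Itga2 at 7.13 to 21.2 in vitro and 235 to 277 ex vivo. Xist stood at 130.7 and 89.7 CPM in the CIS-/- in vitro libraries and at 0 and 0.0351 CPM in wild type in vitro, while ex vivo it stood at 0.322 and 0.197 CPM in CIS-/- and 119.6 and 162.1 CPM in wild type. The Y-linked gene Eif2s3y stood at 0.0385 and 0 CPM in CIS-/- in vitro and 135.2 and 122.0 in wild type in vitro. Ex vivo it stood at 84.9 and 70.4 CPM in CIS-/- and 34.1 and 21.7 in wild type. The wild type ex vivo libraries thus held Xist and Y-linked transcripts together. Sex-linked expression therefore cannot be told apart from genotype in vitro or ex vivo, nor from culture in either genotype. Log ratios between groups also fell with gene length. The tested proteasome genes are short, with a median deposited length of 1365 bases against 2682.5 for all tested genes, so the counts of calls are also given after every library's length trend was removed.

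Culture raised nearly the whole proteasome in wild type cells. By edgeR's quasi-likelihood F test with Benjamini-Hochberg adjustment over all tested genes, 37 of the 42 genes were higher in vitro, against 32.1% of all tested genes, and 1 was lower, against 31.6%. The median log2 fold change was 0.55 for the proteasome genes (range -0.32 to 1.16) and -0.0025 for all tested genes. With the length trend removed, 29 genes were called higher, against 32.7% of all genes, 0 were called lower, against 31.5%, and the median was 0.32. In CIS-/- cells culture raised 39 of the 42, against 34.8% of all tested genes, and lowered 0, against 37.5%, with a median of 0.80 against -0.05 for all genes, and without the length trend 31 were called higher, against 34.4%, and 0 lower, against 36.7%. The single gene lowered in wild type cells was Psmf1. In wild type cells every cultured library was above every ex vivo library for 43.5% of all tested genes, and below for 44%. In CIS-/- cells these shares were 41.4% and 44%. Markers of other cells also moved with culture. The 7 T cell genes summed to 865.6 and 824.0 CPM in CIS-/- in vitro and 182.8 and 167.8 in wild type in vitro, against 58.7 and 31.3 in CIS-/- ex vivo and 38.5 and 47.2 in wild type ex vivo. The 5 basophil and mast cell genes summed to 49.6 and 71.6 CPM in CIS-/- in vitro and 26.9 and 34.3 in wild type in vitro, against 25.0 and 12.98 in CIS-/- ex vivo and 7.57 and 5.96 in wild type ex vivo, with the receptor genes Ms4a2 and Fcer1a at 0 in the cultured libraries. The B cell genes Ms4a1, Pax5 and Cd22 were at 0 in the cultured libraries, with Cd22 at 8.92 to 12.5 CPM and Ms4a1 at 1.3 to 20.9 CPM ex vivo, and the 5 monocyte and macrophage genes summed to 17.8 to 27.2 CPM in vitro and 71.0 to 103.6 CPM ex vivo. Their part in the proteasome result was not tested, and in bulk RNA fewer cells of a type and less RNA per cell cannot be told apart.

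**Figure D1:**
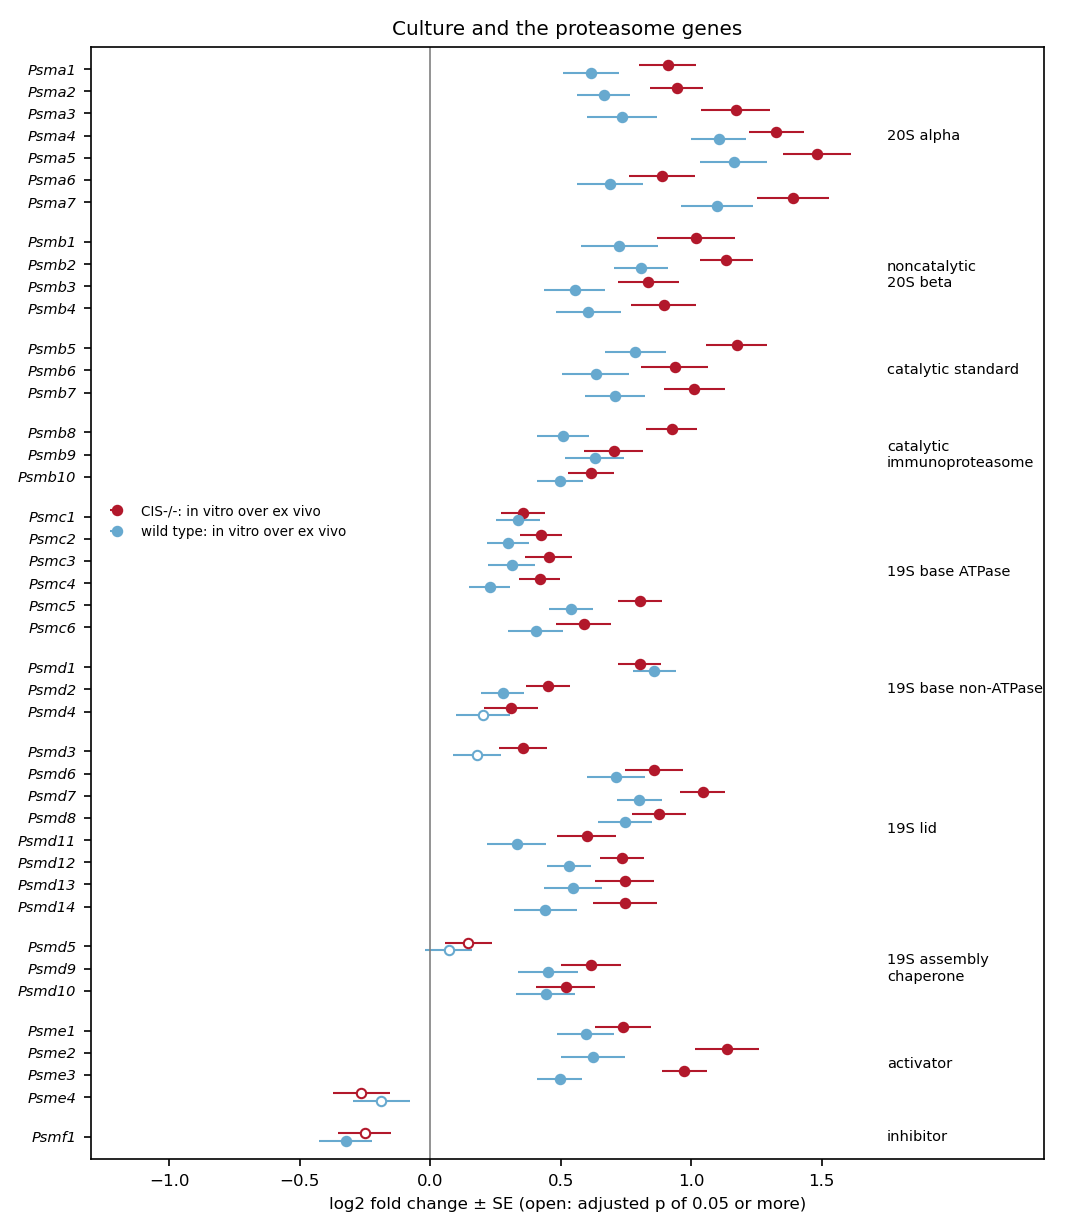
Log2 fold change of the 42 tested proteasome genes, in vitro over ex vivo, in CIS-/- cells (red) and wild type cells (blue), grouped by role. Bars are 1 SE and open points are adjusted p of 0.05 or more. The alpha subunits reach furthest right, the 19S base ATPases lie closer to 0, and Psme4 and Psmf1 are the 2 genes left of 0 in both genotypes.

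The alpha ring had the highest medians among the structural classes, with all 7 tested alpha genes called in both genotypes, with and without the length trend, and medians of 1.17 in CIS-/- cells and 0.73 in wild type cells. Psma5 stood at 46.1 and 56.8 RPKM (TMM-scaled CPM per kilobase of deposited gene length) in CIS-/- in vitro, 35.7 and 38.2 in wild type in vitro, 19.9 and 16.9 in CIS-/- ex vivo, and 16.2 and 16.8 in wild type ex vivo. Psma4 stood at 130.1 and 151 RPKM in CIS-/- in vitro, 112 and 105 in wild type in vitro, 58.7 and 53.5 in CIS-/- ex vivo, and 48.9 and 52.0 in wild type ex vivo. All 4 cultured libraries lay above all 4 ex vivo libraries for both genes. The culture effect in CIS-/- cells was 1.48 on the log2 scale for Psma5 (SE 0.130, adjusted p = 1.81e-05) and 1.33 for Psma4 (SE 0.105, adjusted p = 1.09e-05). In wild type cells it was 1.16 for Psma5 (adjusted p = 0.000105) and 1.11 for Psma4 (adjusted p = 4.34e-05). Pseudogene copies make their absolute levels uncertain, since 55.4% of the 50-base words of the Psma5 transcript and 31.5% of those of Psma4 occur in other genes as well. Alpha genes have a median length of 1096 bases, and without the length trend the class medians were 0.77 in CIS-/- cells and 0.49 in wild type cells. Psma8, the testis alpha subunit, failed the filter with 1 and 2 counts in CIS-/- in vitro, 2 and 0 in wild type in vitro, 3 and 4 in CIS-/- ex vivo, and 1 and 2 in wild type ex vivo.

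The noncatalytic beta genes Psmb1 to Psmb4 all rose with culture in both genotypes, also without the length trend, with medians of 0.96 in CIS-/- cells and 0.67 in wild type cells. Psmb2 was at 259 and 299 RPKM in CIS-/- in vitro, 202 and 206 in wild type in vitro, 134 and 121 in CIS-/- ex vivo, and 119 and 114 in wild type ex vivo. Psmb4 was at 434 and 502 RPKM in CIS-/- in vitro, 343 and 336 in wild type in vitro, 279 and 225 in CIS-/- ex vivo, and 229 and 217 in wild type ex vivo. Both genes had their 4 cultured libraries above their 4 ex vivo libraries. In wild type cells the log2 fold change was 0.81 for Psmb2 (SE 0.102, adjusted p = 0.000206) and 0.61 for Psmb4 (SE 0.124, adjusted p = 0.00276).

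All 6 base ATPases, the motors that thread substrates into the core, were called higher in both genotypes, with medians of 0.44 in CIS-/- cells and 0.33 in wild type cells. Of these 6, Psmc5 and Psmc6 were still called in CIS-/- cells without the length trend (2 of 6), and Psmc5 in wild type cells (1 of 6). Psmc5 was at 110.3 and 116 RPKM in CIS-/- in vitro, 88.5 and 83.1 in wild type in vitro, 66.4 and 63.5 in CIS-/- ex vivo, and 58.4 and 59.8 in wild type ex vivo, a culture effect of 0.54 in wild type cells (SE 0.0851, adjusted p = 0.000708). Psmc1 changed by 0.36 in CIS-/- cells (adjusted p = 0.00476) and by 0.34 in wild type cells (SE 0.0843, adjusted p = 0.00768), but without the length trend its values were -0.01 in CIS-/- cells and 0.11 in wild type cells, neither of them called. Without the trend the ATPase medians were 0.14 in CIS-/- cells and 0.11 in wild type cells, and Psmc4, called at 0.23 in wild type cells, stood at -0.01 (adjusted p = 0.875).

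Psmd1, a large scaffold of the 19S base, had the largest culture effect of the base genes in wild type cells. The gene was at 59.0 and 61.8 RPKM in CIS-/- in vitro, 56.4 and 56.6 in wild type in vitro, 34.1 and 35.2 in CIS-/- ex vivo, and 30.6 and 31.7 in wild type ex vivo. Cultured and ex vivo libraries were far apart, while the genotypes lay close together in each state. The culture effect was 0.80 in CIS-/- cells (adjusted p = 4.17e-05) and 0.86 in wild type cells (SE 0.0822, adjusted p = 4.49e-05), and 0.93 and 0.92 in these genotypes without the length trend. Psmd2, the other scaffold, changed by 0.28 in wild type cells (SE 0.0833, adjusted p = 0.0178). The ubiquitin receptor Psmd4 was not called in wild type cells (0.20, adjusted p = 0.114). In CIS-/- cells Psmd4 was called at 0.31 (adjusted p = 0.023), a direction that turned to -0.13 without the length trend.

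Of the 8 lid genes, 8 rose with culture in CIS-/- cells and 7 in wild type cells, where Psmd3 was not called (0.18, adjusted p = 0.122), and without the length trend 7 were called in CIS-/- cells and 5 in wild type cells. Psmd7 was at 80.9 and 87.8 RPKM in CIS-/- in vitro, 64.9 and 65.7 in wild type in vitro, 39.7 and 42.1 in CIS-/- ex vivo, and 37.4 and 37.5 in wild type ex vivo. Psmd8 was at 168 and 187 RPKM in CIS-/- in vitro, 156 and 148 in wild type in vitro, 103 and 90.3 in CIS-/- ex vivo, and 93.5 and 87.6 in wild type ex vivo. For both lid genes the cultured and ex vivo libraries did not overlap, and the wild type fold changes were 0.80 for Psmd7 (SE 0.086, adjusted p = 8.44e-05) and 0.75 for Psmd8 (SE 0.103, adjusted p = 0.000338). Psmd14, the deubiquitinase of the lid, changed by 0.75 in CIS-/- cells (adjusted p = 0.000606) and 0.44 in wild type cells (adjusted p = 0.0121), where it had 0.22 and was not called without the length trend (adjusted p = 0.0515). Among the chaperones that help the base to assemble, Psmd9 and Psmd10 were called higher in both genotypes, but Psmd10 in neither without the length trend (0.13 in CIS-/- cells and 0.20 in wild type cells). Psmd5 had 0.15 in CIS-/- cells (adjusted p = 0.176) and 0.07 in wild type cells (adjusted p = 0.514). Psmd5 was the one gene with positive fold changes that was called in neither genotype.

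All 6 exchangeable catalytic genes were called higher with culture in both genotypes. Without the length trend all 6 were called in wild type cells and 4 in CIS-/- cells, where Psmb9 had 0.13 (adjusted p = 0.2) and Psmb10 had 0.17 (adjusted p = 0.0521). Psmb8 stood at 596 and 663 RPKM in CIS-/- in vitro, 428 and 448 in wild type in vitro, 342 and 321 in CIS-/- ex vivo, and 298 and 319 in wild type ex vivo. Its standard counterpart Psmb5, the chymotrypsin-like subunit, stood at 134 and 158 RPKM in CIS-/- in vitro, 97.1 and 94.8 in wild type in vitro, 70.3 and 59.0 in CIS-/- ex vivo, and 55.5 and 55.8 in wild type ex vivo. In each state every CIS-/- library of both genes was above every wild type library. That held for 33.7% of all tested genes in vitro and 22% ex vivo, and neither gene was called between genotypes ex vivo. Culture changed Psmb8 by 0.92 in CIS-/- cells (adjusted p = 5.17e-05) and 0.51 in wild type cells (SE 0.098, adjusted p = 0.00205). For Psmb5 the culture effect was 1.17 in CIS-/- cells (adjusted p = 3.5e-05) and 0.79 in wild type cells (SE 0.116, adjusted p = 0.000498).

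In the caspase-like pair, Psmb9 was at 299 and 338 RPKM in CIS-/- in vitro, 254 and 286 in wild type in vitro, 209 and 182 in CIS-/- ex vivo, and 169 and 180.1 in wild type ex vivo. Psmb6 was at 177 and 217 RPKM in CIS-/- in vitro, 147 and 139 in wild type in vitro, 113 and 93.1 in CIS-/- ex vivo, and 90.7 and 93.1 in wild type ex vivo. Culture changed Psmb9 by 0.70 in CIS-/- cells (adjusted p = 0.000553) and 0.63 in wild type cells (SE 0.113, adjusted p = 0.0014), and Psmb6 by 0.94 in CIS-/- cells (adjusted p = 0.000219) and 0.64 in wild type cells (SE 0.128, adjusted p = 0.00263). In the trypsin-like pair, Psmb10 was at 303 and 324 RPKM in CIS-/- in vitro, 249.1 and 249.6 in wild type in vitro, 210.3 and 198 in CIS-/- ex vivo, and 180.3 and 173 in wild type ex vivo. Psmb7 was at 209 and 247 RPKM in CIS-/- in vitro, 168 and 162 in wild type in vitro, 122 and 103 in CIS-/- ex vivo, and 102 and 100.4 in wild type ex vivo. Cultured libraries of all 4 genes were above the ex vivo ones. The culture effect was 0.62 for Psmb10 (adjusted p = 0.00027) and 1.01 for Psmb7 (adjusted p = 7.76e-05) in CIS-/- cells, and 0.50 for Psmb10 (SE 0.0878, adjusted p = 0.00131) and 0.71 for Psmb7 (SE 0.116, adjusted p = 0.000837) in wild type cells. Psmb11, the thymus-specific catalytic subunit, had 0 counts in all 8 libraries, which allows up to 3 counts in a library and covers counting error only.

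**Figure D2:**
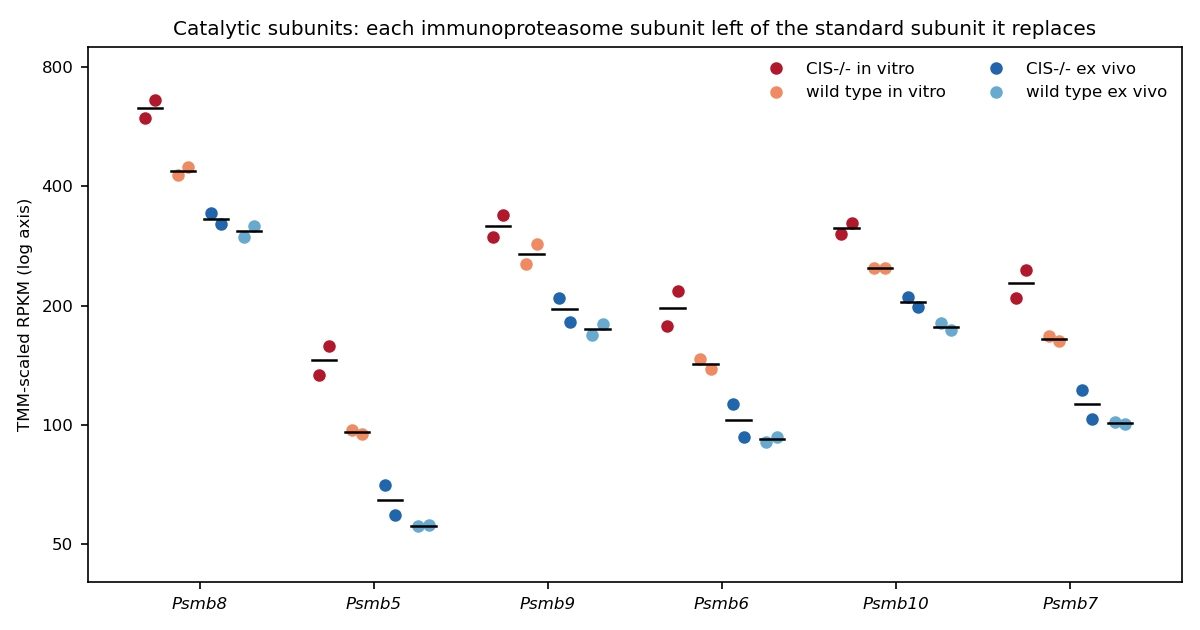
TMM-scaled RPKM (log axis) of the catalytic subunits in each library, each immunoproteasome gene beside the standard gene it replaces; points are libraries and lines are group means. Psmb8 lies highest, at 596 and 663 in CIS-/- in vitro, and every gene is higher in the cultured groups.

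The immunoproteasome genes predominated over the standard genes in every library. Their ratio to the standard genes was lower in the cultured libraries of each genotype than in its ex vivo ones. The summed RPKM of Psmb8, Psmb9 and Psmb10 divided by that of Psmb5, Psmb6 and Psmb7 was 2.30 and 2.13 in CIS-/- in vitro, 2.26 and 2.49 in wild type in vitro, 2.49 and 2.74 in CIS-/- ex vivo, and 2.61 and 2.70 in wild type ex vivo. Group means were 2.22 ± 0.123 in CIS-/- in vitro, 2.37 ± 0.158 in wild type in vitro, 2.62 ± 0.178 in CIS-/- ex vivo and 2.65 ± 0.0623 in wild type ex vivo (SD, n = 2 each). On the log2 scale, culture minus ex vivo was -0.24 in CIS-/- cells and -0.16 in wild type cells, beside a replicate SD of 0.0814. That SD is the spread of single libraries, not the error of a difference between group means. CIS-/- minus wild type was -0.10 in vitro and -0.02 ex vivo, and the ranges of the 2 genotypes overlapped in both states. The ratio carries no test, because it is a score over genes chosen with results known, and the length trend was not removed from it.

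Within pairs, Psmb8 over Psmb5 was the highest ratio, at 4.45 and 4.19 in CIS-/- in vitro, 4.41 and 4.73 in wild type in vitro, 4.87 and 5.44 in CIS-/- ex vivo, and 5.36 and 5.71 in wild type ex vivo. Psmb10 over Psmb7 was 1.45 and 1.31 in CIS-/- in vitro, 1.48 and 1.54 in wild type in vitro, 1.72 and 1.92 in CIS-/- ex vivo, and 1.77 and 1.73 in wild type ex vivo. Both of these ratios were lower in every cultured library than in every ex vivo library of the same genotype. Psmb9 over Psmb6 was 1.69 and 1.56 in CIS-/- in vitro, 1.73 and 2.06 in wild type in vitro, 1.85 and 1.95 in CIS-/- ex vivo, and 1.86 and 1.93 in wild type ex vivo, with overlap between the cultured and ex vivo wild type libraries. Absolute ratios between genes depend on reads shared with copies, since 57.1% of the 50-base words of the Psmb5 transcript and 5.83% of those of Psmb8 also occur in other genes or pseudogenes. Exons of Psmb8, Psmb9 and Psmb7 overlap opposite-strand transcripts of Gm20496 (498 bases), Tap1 (212 bases) and Nek6 (405 bases), and whether the counting used strand is not given in the sources used here.

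**Figure D3:**
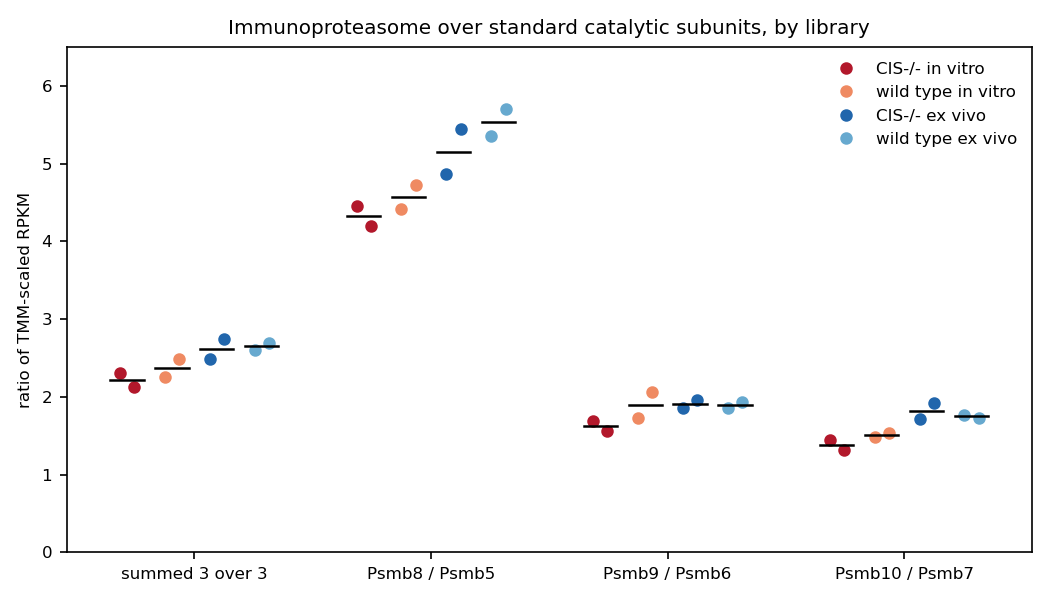
Ratio of immunoproteasome to standard catalytic levels (TMM-scaled RPKM) in each library, summed over the 3 genes of each kind and for each pair; lines are group means. Summed ratios run from 2.13 in a CIS-/- in vitro library to 2.74 in a CIS-/- ex vivo library, and Psmb8 over Psmb5 is lower in the cultured libraries.

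Of the 4 activators, 3 were called higher with culture in each genotype, and without the length trend 4 were called in CIS-/- cells and 3 in wild type cells. Psme1 was at 321 and 333 RPKM in CIS-/- in vitro, 291 and 290.1 in wild type in vitro, 216 and 176 in CIS-/- ex vivo, and 189 and 195 in wild type ex vivo. Psme2 was at 33.4 and 40.8 RPKM in CIS-/- in vitro, 24.9 and 26.2 in wild type in vitro, 16.4 and 17.3 in CIS-/- ex vivo, and 16.0 and 17.2 in wild type ex vivo. The low level of Psme2 beside its partner Psme1 is uncertain, because 59.3% of the 50-base words of its transcript also occur in Psme2b. Culture changed Psme1 by 0.74 in CIS-/- cells (adjusted p = 0.000321) and 0.60 in wild type cells (SE 0.108, adjusted p = 0.00149). For Psme2 it was 1.14 in CIS-/- cells (adjusted p = 5.47e-05) and 0.62 in wild type cells (SE 0.122, adjusted p = 0.00226).

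Psme3 was at 154 and 153 RPKM in CIS-/- in vitro, 100.6 and 108 in wild type in vitro, 75.9 and 80.6 in CIS-/- ex vivo, and 74.9 and 73.0 in wild type ex vivo. The ex vivo groups were close together, and CIS-/- in vitro stood above all other libraries. Culture changed Psme3 by 0.97 in CIS-/- cells (adjusted p = 2.05e-05) and 0.50 in wild type cells (SE 0.0869, adjusted p = 0.00124), and by 0.95 in CIS-/- and 0.47 in wild type cells without the length trend. None of the 50-base words of its transcript occur in another gene.

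Psme4 and Psmf1 were the 2 genes with negative culture values in both genotypes before the length trend was removed. Psme4 was at 12.4 and 11.1 RPKM in CIS-/- in vitro, 13.1 and 13.2 in wild type in vitro, 12.8 and 15.5 in CIS-/- ex vivo, and 14.9 and 15.1 in wild type ex vivo. Its culture values, -0.26 in CIS-/- cells (adjusted p = 0.0552) and -0.19 in wild type cells (adjusted p = 0.161), were not called, and without the length trend they turned to 0.32 in CIS-/- cells (adjusted p = 0.00276) and 0.13 in wild type cells. At 6442 bases Psme4 is the longest of the genes, so no direction is given for it. Psmf1 was at 13.6 and 12.2 RPKM in CIS-/- in vitro, 13.98 and 12.7 in wild type in vitro, 16.0 and 14.6 in CIS-/- ex vivo, and 17.0 and 16.3 in wild type ex vivo. The inhibitor had -0.25 with culture in CIS-/- cells (adjusted p = 0.0512), fell by 0.32 on the log2 scale in wild type cells (SE 0.101, adjusted p = 0.0212), and was not called without the length trend (-0.23 in wild type cells, adjusted p = 0.0621).

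**Figure D4:**
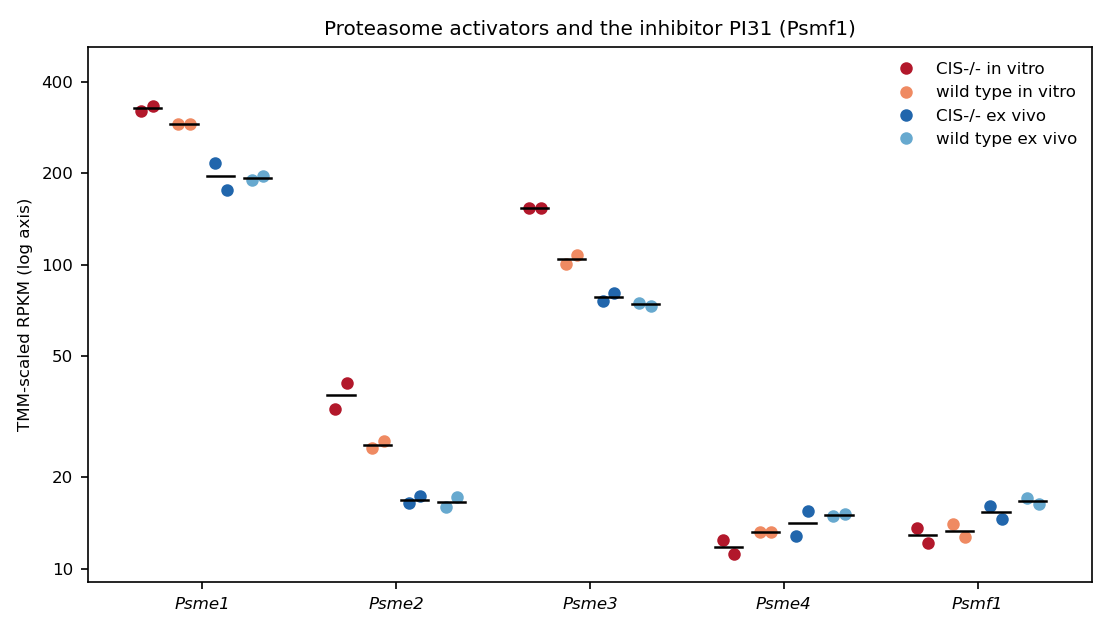
TMM-scaled RPKM (log axis) of the activators Psme1 to Psme4 and the inhibitor Psmf1 in each library; lines are group means. Psme3 reaches 154 and 153 in CIS-/- in vitro, above its 100.6 and 108 in wild type in vitro, while Psme4 and Psmf1 stay between 11.1 and 17.0 in all libraries.

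The comparison of genotypes asks which genes differ when CIS is missing. In vitro, 25 of the 42 proteasome genes were higher in CIS-/- cells, against 11% of all tested genes, and 0 were lower, against 14.6%, by edgeR. At an unadjusted p under 0.05 the number was 32, and 12 without the length trend. The share of all genes at that cut was not counted. The median log2 fold change was 0.36, with a range from -0.16 to 0.61, and 0 for all tested genes. Without the length trend 3 genes were called, Psme3, Psmb5 and Psmb8, which is 7.14% of the proteasome genes against 10.3% of all genes, a share no higher than the background, with 0 lower against 11.6%, and the median was 0.14. The count also depends on single libraries. With CIS-/- in vitro replicate 2 or any wild type library left out, fewer proteasome genes were called, and fewer of all tested genes. The share of proteasome genes called was then no longer clearly above that of all genes. Their median fold change stayed positive, at 0.27 without CIS-/- in vitro replicate 2 and 0.44 without replicate 1. It was 0.41 without wild type in vitro replicate 1 and 0.33 without replicate 2. With either wild type ex vivo library left out it was 0.36. Libraries of 1 genotype differed by length as well: across genes, Spearman's rho between length and the log ratio of replicate 1 over replicate 2 was 0.451 in CIS-/- in vitro, against 0.0197 in wild type in vitro. Genes of the T cell list summed to 865.6 and 824.0 CPM in CIS-/- in vitro and 182.8 and 167.8 CPM in wild type in vitro, mostly from Cd3d, Cd3e and Cd3g, with Cd4 at 0 to 0.104 CPM in these 4 libraries, and their part in the result was not tested.

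Psme3 was the gene whose difference held throughout. It was 0.56 higher on the log2 scale in CIS-/- in vitro than in wild type in vitro (SE 0.0867, adjusted p = 0.00582) and 0.54 higher without the length trend (adjusted p = 0.00299). It passed the threshold in all 19 other settings, including each left-out library, with adjusted p from 3.05e-07 to 0.0432 and a fold change between 0.43 and 0.61. Psmb5 was 0.61 higher (SE 0.115, adjusted p = 0.00964) and Psmb8 0.52 higher (SE 0.0979, adjusted p = 0.00949). Without the length trend both stood at 0.27, with adjusted p = 0.0226 for Psmb5 and 0.0377 for Psmb8, and each passed in 16 of the 19 settings. Leaving out CIS-/- in vitro replicate 2 gave an adjusted p of 0.0684 for Psmb5 and 0.0596 for Psmb8.

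The other catalytic genes were closer together between genotypes. Psmb6 was higher in CIS-/- in vitro by 0.47 (SE 0.127, adjusted p = 0.0306), Psmb7 by 0.46 (SE 0.115, adjusted p = 0.0226) and Psmb10 by 0.33 (SE 0.0875, adjusted p = 0.0281). Psmb9, whose gene lies head to head with the peptide transporter gene Tap1 and shares 212 exon bases with it on the opposite strand, was not called (0.24, SE 0.112, adjusted p = 0.153). Over the 19 other settings the Psmb9 value ran from -0.11 to 0.32. Psmb6, Psmb7 and Psmb10 were no longer called without the length trend. Among the activators, Psme2 was higher by 0.54 (SE 0.119, adjusted p = 0.0155; 0.23 and not called without the trend), while Psme1 had 0.17 (adjusted p = 0.268). Over the 19 other settings the Psme1 value ran from -0.13 to 0.21. Psme4 had -0.16 (adjusted p = 0.313), turning to 0.20 without the length trend, and Psmf1 had -0.05 (adjusted p = 0.751), turning to 0.05.

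Among the structural subunits the difference was larger in shorter genes. All 7 alpha genes were called higher in CIS-/- in vitro, with a median of 0.42 that was 0.13 without the trend, and Psma5 (0.48, SE 0.125, adjusted p = 0.0269) and Psma2 (0.42, SE 0.1, adjusted p = 0.0199) had the lowest p among them. Of the noncatalytic beta genes 3 of 4 were called, Psmb2 by 0.46 (SE 0.101, adjusted p = 0.0152) and Psmb3 by 0.48 (SE 0.116, adjusted p = 0.0211) among them, although 55.8% of the 50-base words of Psmb3 occur in copies elsewhere. In the 19S cap, 3 of 6 base ATPases, 5 of 8 lid genes, 0 of 3 non-ATPase base genes and 0 of 3 assembly chaperones were called, and 0 of the alpha, noncatalytic beta and 19S genes were called without the length trend. Psmc5 was higher by 0.40 (SE 0.0844, adjusted p = 0.013), Psmc4 by 0.34 (SE 0.0787, adjusted p = 0.0176), Psmd7 by 0.37 (SE 0.0848, adjusted p = 0.0173) and Psmd14 by 0.46 (SE 0.121, adjusted p = 0.0278). Psmd1, which rose with culture, differed by 0.10 between genotypes in vitro (SE 0.0813, adjusted p = 0.411). Across the 42 genes Spearman's rho of the fold change with length was -0.604, against -0.461 across all 13184 tested genes; genes are not independent replicates.

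**Figure D5:**
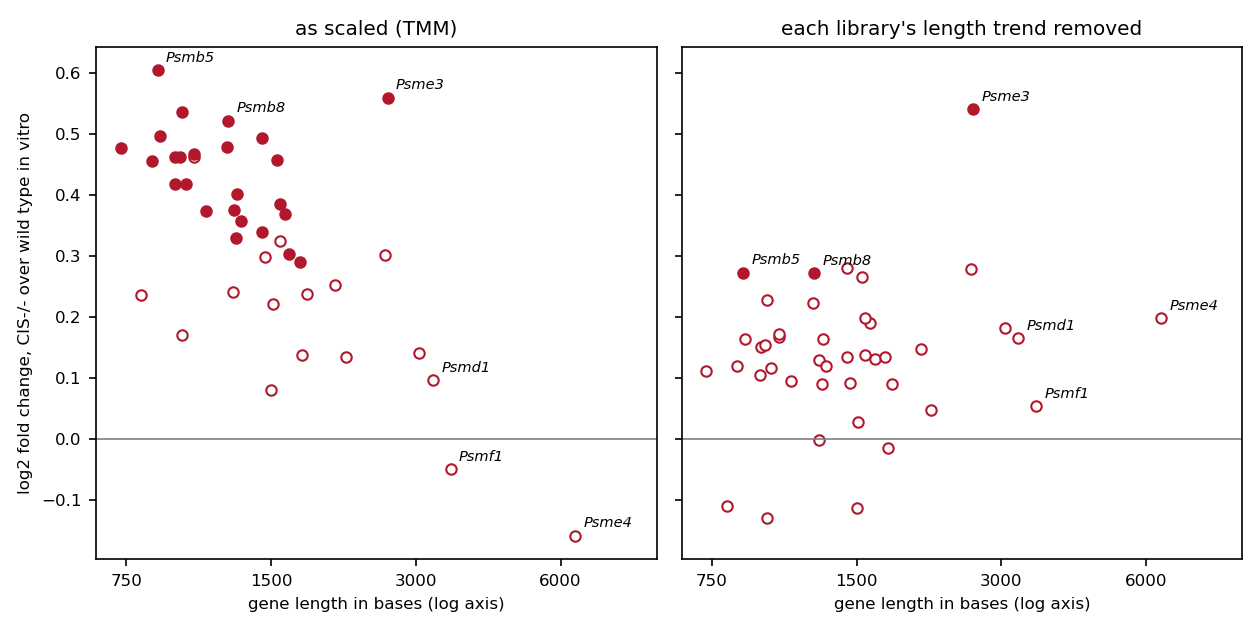
Log2 fold change of CIS-/- over wild type in vitro for the 42 proteasome genes against deposited gene length (log axis), as scaled (left) and with each library's length trend removed (right). Filled points are adjusted p under 0.05: 25 on the left and 3 on the right, where Psme3 stands apart at 0.54.

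Ex vivo, 0 of the 42 genes were called between CIS-/- and wild type by edgeR, DESeq2 or limma-voom, and 0.0607% of all tested genes were called by edgeR. At an unadjusted p under 0.05 there was 1, Psmb10 (0.21, SE 0.0878, adjusted p = 0.766). The median was 0.14, with a range from -0.13 to 0.22, and all genes had a median of 0.02. Psmd5, Psmd6 and Psmd10 had the next lowest p, with fold changes of 0.18, 0.21 and 0.22 and an adjusted p of 0.766 each. Psme3 had 0.08 (SE 0.0869, adjusted p = 0.817) and Psmb8 0.11 (SE 0.0978, adjusted p = 0.796).

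Whether the genotype difference itself differed between in vitro and ex vivo was tested as an interaction. By edgeR 0 of the 42 genes were called, against 0.137% of all tested genes. At an unadjusted p under 0.05 there were 6, all of them larger in vitro, and 1 without the length trend. The share of all genes at that cut was not counted. DESeq2 called 2, Psme3 (adjusted p = 0.0149) and Psmb8 (adjusted p = 0.0496). It also called 4.49% of all tested genes, which is near the share it called of the proteasome genes. The edgeR values were 0.48 for Psme3 (SE 0.123, adjusted p = 0.117), 0.42 for Psmb8 (SE 0.138, adjusted p = 0.171), 0.51 for Psme2 (SE 0.173, adjusted p = 0.174) and 0.39 for Psmb5 (SE 0.163, adjusted p = 0.241). The genotype difference is therefore not shown to be larger in vitro by the edgeR test.

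Genes that build or accompany the proteasome mostly rose with culture too. Of 13 tested assembly factors and partners, 8 were higher and 1 lower in both genotypes, and without the length trend 9 were higher and 1 lower in CIS-/- cells and 8 higher and 2 lower in wild type cells. Among all tested genes, culture raised 34.8% and lowered 37.5% in CIS-/- cells, and raised 32.1% and lowered 31.6% in wild type cells. Without the length trend these shares were 34.4% and 36.7% in CIS-/- cells and 32.7% and 31.5% in wild type cells. Psmg2, a chaperone of alpha ring assembly, was at 35.1 and 40.05 CPM in CIS-/- in vitro, 27.1 and 27.9 in wild type in vitro, 11.97 and 10.8 in CIS-/- ex vivo, and 10.3 and 10.1 in wild type ex vivo, which is 1.43 on the log2 scale in wild type cells (SE 0.115, adjusted p = 1.66e-05). Pomp, the maturation factor of the 20S core, changed by 0.91 (SE 0.14, adjusted p = 0.000607) and the deubiquitinase Usp14 by 0.70 (SE 0.101, adjusted p = 0.000424) in wild type cells. CIS loss in vitro raised 6 of the 13, against 11% of all tested genes, and lowered 0, against 14.6%. Psmg1, the partner of Psmg2, was higher by 0.68 (SE 0.125, adjusted p = 0.00894). Without the length trend 4 of the 13 were raised, against 10.3% of all tested genes, and 0 lowered, against 11.6%. Ex vivo and in the interaction 0 of the 13 were called, against 0.0607% and 0.137% of all tested genes.

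Nfe2l1 encodes NRF1, which drives proteasome genes when proteasome activity is short, and Nfe2l2 encodes NRF2. Nfe2l1 was at 85.8 and 67.8 CPM in CIS-/- in vitro, 103 and 107 in wild type in vitro, 138 and 169 in CIS-/- ex vivo, and 155 and 157 in wild type ex vivo. Nfe2l2 was at 51.6 and 41.9 CPM in CIS-/- in vitro, 65.1 and 69.2 in wild type in vitro, 106 and 97.9 in CIS-/- ex vivo, and 85.9 and 95.6 in wild type ex vivo. For both genes the cultured libraries all lay below the ex vivo ones. CIS loss in vitro gave a log2 fold change of -0.46 for Nfe2l1 (SE 0.136, adjusted p = 0.0409; not called without the length trend) and -0.52 for Nfe2l2 (SE 0.118, adjusted p = 0.0165). Of 8 genes of this regulation 4 were higher and 3 lower with culture in each genotype, with and without the length trend, where 34.8% of all tested genes were higher and 37.5% lower in CIS-/- cells and 32.1% and 31.6% in wild type cells. The small MAF partner genes Maff and Mafg rose in wild type cells by 4.01 (SE 0.306, adjusted p = 1.31e-05) and 1.84 (SE 0.161, adjusted p = 2.69e-05).

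Irf1 and Jak1, genes of the interferon signalling that induces the immunoproteasome, were lower in cultured cells. Irf1, a transcription factor for Psmb9 and Psmb8, was at 144 and 134 CPM in CIS-/- in vitro, 183 and 189 in wild type in vitro, 365 and 337 in CIS-/- ex vivo, and 304 and 309 in wild type ex vivo. Jak1, a kinase of interferon receptors, was at 522 and 409 CPM in CIS-/- in vitro, 715 and 672 in wild type in vitro, 2275 and 2562 in CIS-/- ex vivo, and 2470.5 and 2389 in wild type ex vivo. Neither gene's cultured libraries overlapped its ex vivo ones. The culture effect on Jak1 was -2.38 in CIS-/- cells and -1.81 in wild type cells, and on Irf1 it was -1.34 in CIS-/- cells and -0.72 in wild type cells, all called. CIS loss in vitro lowered 3 of 7 tested genes of this signalling, against 14.6% of all tested genes, and raised 0, against 11%. The log2 fold changes were -0.42 for Irf1 (SE 0.0897, adjusted p = 0.0135), -0.58 for Jak1 (SE 0.131, adjusted p = 0.0168) and -0.53 for Jak2 (SE 0.141, adjusted p = 0.029). Without the length trend Irf1 was the 1 of these 3 that was called (-0.34, adjusted p = 0.02), where 11.6% of all tested genes were lower.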

How the data were processed

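RNA from 8 libraries of mouse NK cells was sequenced, and the authors deposited raw read counts per gene with gene lengths, and log2 RPKM values for 12372 genes, of which 41 are proteasome genes. Per the submitters' processing notes, reads were aligned to GRCm38 (mm10) with Subread, counted with featureCounts and normalised with limma; versions, read length, strand and the handling of reads that fit several genes are not given in the sources used here, so values of genes with copies or overlaps are uncertain. Library totals were 21.5 M to 28.1 M counts.

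The tests ran in edgeR 4.0.16 under R 4.3.3: filterByExpr by group (minimum count 10, total 15), TMM scaling, 1 mean per group over all 8 libraries (4 residual degrees of freedom), quasi-likelihood F tests, and Benjamini-Hochberg adjustment over 13184 genes with a threshold of 0.05. Each SE was obtained by dividing the size of the log2 fold change by the root of its F statistic. The length trend was a natural spline (4 degrees of freedom) of each library's log ratio on log gene length, removed as centred offsets. Alternatives were RLE or library-total scaling, other filters, DESeq2 1.42.0, limma-voom and log2 RPKM (limma 3.58.1), fewer samples, a replicate block, the length trend and each left-out library. The scripts were tested on simulated counts.

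Members, gene lists and tests were chosen with earlier results of these data known. Named were the catalytic, activator, inhibitor and filtered-out genes, and per class the 2 lowest p for culture in wild type, CIS loss in vitro and the interaction, the 3 lowest p for the other comparisons, and up to 3 genes per pathway list; Psmd3 and other single exceptions to a count were named after their values were seen. Promoters came from RefSeq (GRCm38.p6), shared words of 50 bases from the longest coding GENCODE M21 transcripts. Of the 6 monocyte and macrophage markers listed, 5 were in the counts. Some list results are not reported here.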

Additional observations from a re-analysis of the deposited data

How the results depend on the processing

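Of 19 other settings, those that kept both libraries of each compared group called 30 to 41 proteasome genes for culture in CIS-/- cells. They called 52.2% to 77.2% of all tested genes there. In wild type cells they called 29 to 41, against 45.6% to 73.2% of all tested genes. With single libraries left out, the median for culture ran from 0.73 to 0.88 in CIS-/- cells and from 0.51 to 0.59 in wild type cells. For CIS loss in vitro, called for 25 genes, scaling by library totals gave 6, while shifting the median of all genes to -0.13, removing the length trend gave 3, and leaving out single libraries gave 1 to 30. No called value for CIS loss turned. With the replicate block, 15 genes were called, against 19.2% of all tested genes. With the block and the length trend removed 2 were called, against 18.5%. The labels do not say whether replicate numbers pair the libraries. Correlations of same-numbered deviations ran from -0.232 to 0.146, which cannot settle it. The cause of these shifts was not tested. For the interaction, DESeq2 called 2 genes, against 4.49% of all tested genes. The other settings that kept both libraries of every group called 0. Ex vivo, these settings and DESeq2 called 0 genes. Removing the length trend turned the direction of culture for Psmc4 in wild type cells (-0.014, and -0.014 with the block), and in CIS-/- cells for Psmc1 (-0.014 and -0.013), Psmd4 (-0.13 and -0.13) and Psme4 (0.32 and 0.32). Culture values that were not called turned too without the length trend, to -0.05 for Psmd5 in CIS-/- cells, and in wild type cells to -0.07 for Psmd4, -0.06 for Psmd5 and 0.13 for Psme4. The immunoproteasome to standard ratio was tried only with other ways of computing it and with each library left out, not with the length trend removed. In these settings it moved by less than its replicate SD of 0.0814, and leaving out a library outside the compared groups cannot change it. For culture in CIS-/- cells it ran from -0.31 to -0.17 and in wild type cells from -0.23 to -0.09. Precision is limited by the 2 libraries a group, and Psma8 and Psmb11 were too low to test at this depth.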

Other observations

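Genes around the proteasome that the text above does not describe moved in both directions. Of 12 substrate delivery genes, culture in CIS-/- cells raised 3 and lowered 4, and in wild type cells it raised 3 and lowered 3. Of all tested genes, culture raised 34.8% and lowered 37.5% in CIS-/- cells and raised 32.1% and lowered 31.6% in wild type cells. Without the length trend the substrate delivery counts were 6 raised and 2 lowered in CIS-/- cells and 5 raised and 2 lowered in wild type cells. Rad23b, a shuttle for ubiquitin-tagged proteins, was at 264 and 272 CPM in CIS-/- in vitro, 217 and 218 in wild type in vitro, 139.9 and 147 in CIS-/- ex vivo, and 146 and 144 in wild type ex vivo, a culture effect of 0.90 in CIS-/- cells (SE 0.0818, adjusted p = 2.15e-05) and 0.59 in wild type cells (SE 0.0814, adjusted p = 0.000347). It was also the 1 gene of this list higher with CIS loss in vitro (0.30, SE 0.081, adjusted p = 0.0295). Ubqln2, another shuttle, changed with culture by -0.91 in CIS-/- cells (adjusted p = 0.000118) and -0.68 in wild type cells (adjusted p = 0.000846). Of 5 tested ubiquitin and E1 genes, 3 rose with culture in CIS-/- cells and 2 in wild type cells, as they did in number without the length trend, where 1 was also lowered in CIS-/- cells. Uba6, a ubiquitin-activating enzyme, changed by 0.79 in CIS-/- cells (adjusted p = 0.0002) and 0.65 in wild type cells (adjusted p = 0.000847).

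In the supply of peptides to MHC class I, culture raised 4 and lowered 2 of 9 genes in CIS-/- cells and raised 3 and lowered 3 in wild type cells, and without the length trend it raised 3 and lowered 2 in CIS-/- cells and raised 3 and lowered 3 in wild type cells. The shares of all tested genes were 34.8% raised and 37.5% lowered in CIS-/- cells, and 32.1% and 31.6% in wild type cells. Without the length trend they were 34.4% and 36.7% in CIS-/- cells and 32.7% and 31.5% in wild type cells. The heavy chain gene H2-K1 was at 4512 and 3943 CPM in CIS-/- in vitro, 3353 and 2665 in wild type in vitro, 5469.8 and 5516 in CIS-/- ex vivo, and 5022 and 5218 in wild type ex vivo, so its cultured libraries all lay below its ex vivo ones. With CIS loss in vitro H2-K1 was higher by 0.49 (SE 0.131, adjusted p = 0.0284) and the chaperone gene Calr by 0.44 (SE 0.0932, adjusted p = 0.0135), and 3 of the 9 genes were called. Those 3 were higher, against 11% of all tested genes, and 2 were higher without the length trend, against 10.3%. Reads of H2 genes can be split among near-identical copies, so the H2-K1 values are uncertain.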
